A study of Arabidopsis thaliana with 24 samples.

Results

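The genes described here belong to the salicylic acid branch of plant defence in Arabidopsis thaliana. They are PBS3 (AT5G13320, probe set 250286_at), EDS5 (AT4G39030, 252921_at), PAD4 (AT3G52430, 252060_at), PR1 (AT2G14610, 266385_at), PR2 (AT3G57260, 251625_at), PR5 (AT1G75040, 259925_at) and LLP1 (AT5G03350, 250942_at). Each is read by 1 probe set, so they make up 7 of the 22746 probe sets that are not controls. They were picked by name with differences between these arrays already in view, so their own differences between groups are given as a description and carry no test. All 7 were kept, whatever their level. The probe set table used here names LLP1 itself, and the other 6 probe sets are named from the pairing of probe set and locus that defined the list.

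Shoots of pnp1-1 and of wild type were compared with and without phosphate. The pnp1-1 line (SALK_013306) lacks PNP1, the polynucleotide phosphorylase of the chloroplast, which degrades RNA and adds tails to it inside the plastid, and wild type (WT) was Col0, the background of the mutant. All plants spent 2 weeks on full nutrient medium and were then moved to medium lacking phosphate (-P) or containing it (+P). RNA was taken from seedlings without roots. The 8 groups were pnp1-1 -P, pnp1-1 +P, WT -P and WT +P, each after 3 h and after 1 week, with 3 biological replicates per group pooled from at least 4 seedlings. A single mutant line stood for loss of the enzyme, and the PNP1 transcript was not analysed here.

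Salicylic acid is a phenolic hormone that accumulates when plants meet biotrophic pathogens, and it can also build up without a pathogen under stress. In Arabidopsis most of it starts in the chloroplast as isochorismate, which EDS5, a transporter of the chloroplast envelope, passes to the cytosol, where PBS3, an enzyme of the GH3 family, joins it to glutamate on the way to salicylic acid. PAD4, a lipase-like protein that acts in a complex with EDS1, promotes this accumulation, and the hormone in turn raises transcripts of secreted defence proteins. PR1, PR2 (a beta-1,3-glucanase) and PR5 (a thaumatin-like protein) are the classic markers of that output, and LLP1 is a legume lectin-like protein that responds to salicylic acid.

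The values were array intensities on a linear scale, without read depth, so the number of arrays limits the precision. Mean intensity per array lay between 462.8 and 496.2 at 3 h and between 582.8 and 601.6 at 1 week, and levels at 1 week were never set against levels at 3 h because time and array batch cannot be told apart. Between 40.3% and 41.5% of the probe sets of an array fell below an intensity of 16, a range in which the order of values is not dependable. On the 24 arrays PAD4 lay under 16 on 20, PBS3 on 17, EDS5 on 12, PR2 on 9, PR1 on 6, LLP1 on 2 and PR5 on 0. Replicate 2 of WT -P at 3 h stood apart from its group: 6 of the 7 probe sets were above the group mean there, and their mean deviation was 1.66 on the log2 scale. Replicate 2 of pnp1-1 +P at 3 h likewise had 6 of 7 above the group mean and a mean deviation of 0.99. Replicates 2 and 3 of WT +P at 1 week were the closest replicate pair of all (SD of their log2 differences 0.27, against 0.36 to 0.70 in the others), and counts with the pair averaged are given in the closing section.

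After 1 week, all 7 probe sets were higher in pnp1-1 than in WT on both media. On -P medium the median of their 7 log2 differences (pnp1-1 minus WT) was 2.54, and on +P medium it was 2.12, beside medians over all 22746 probe sets of 0.01 and 0.05. The difference ranged from 0.82 (PR5) to 3.58 (EDS5) on -P medium and from 1.02 (PAD4) to 4.20 (EDS5) on +P medium. For each of the 7 genes, all 3 pnp1-1 arrays lay above all 3 WT arrays on both media, as did 6.96% of all probe sets on -P medium and 12.1% on +P medium. In shoots made of many cell types, more RNA per cell and more cells of a type cannot be told apart.

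**Figure D1:**
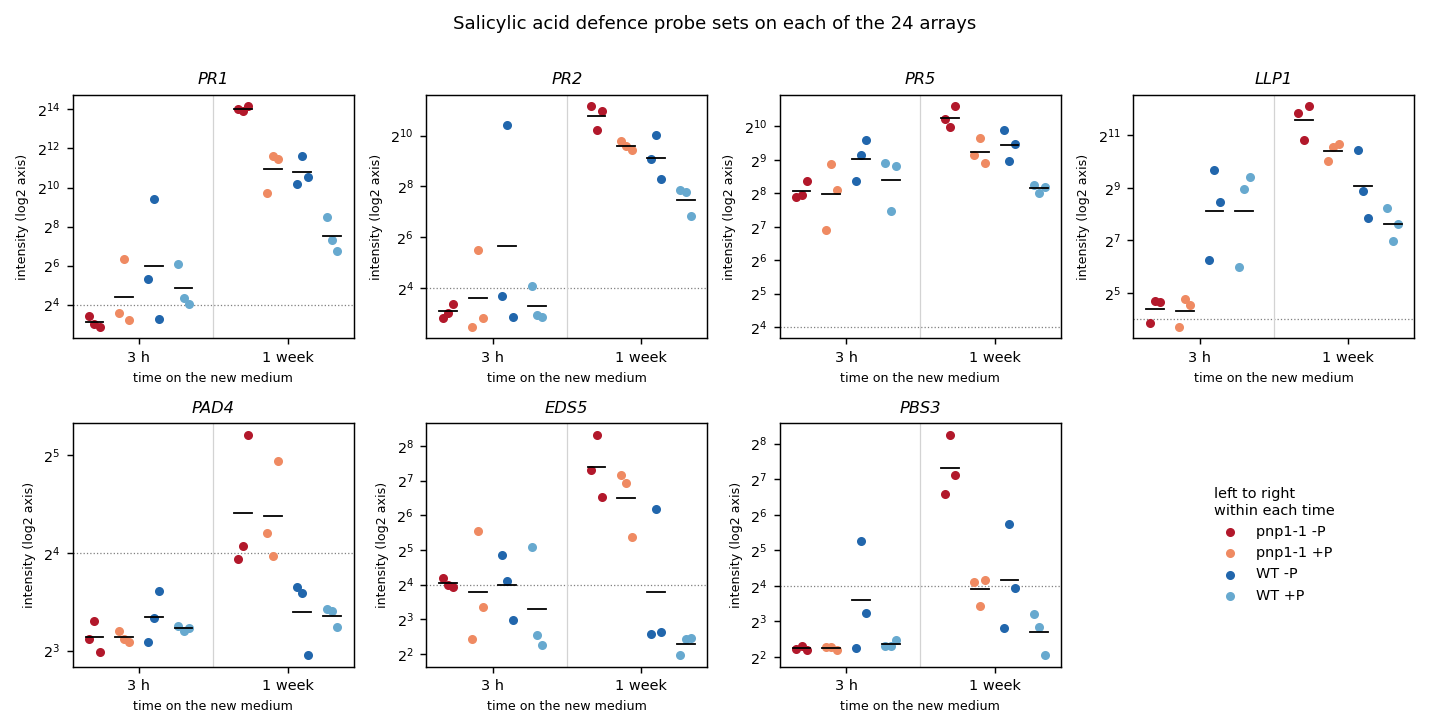
Intensity (log2 axis) of each of the 7 salicylic acid probe sets on the 24 arrays, with pnp1-1 -P, pnp1-1 +P, WT -P and WT +P from left to right within each time. Points are arrays, black bars are the means of the 3 log2 values, and the dotted line marks an intensity of 16. At 1 week every pnp1-1 point lies above every WT point on the same medium, and PR1 in pnp1-1 -P lies between 15701 and 18438.

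EDS5, the export step, was measurable in the mutant at 1 week. In WT it was near the lower limit of the scale, apart from replicate 2 of WT -P. EDS5 read 158, 321 and 91.88 in pnp1-1 -P (replicates 1, 2 and 3, the order kept throughout) and 144, 122 and 41.58 in pnp1-1 +P. In WT it read 5.97, 72.94 and 6.21 on -P medium and 3.89, 5.46 and 5.52 on +P medium. Only replicate 2 of WT -P stood above an intensity of 16 among the 6 WT arrays, and it also exceeded replicate 3 of pnp1-1 +P. The log2 difference of the genotypes was 3.58 ± 0.96 on -P medium and 4.20 ± 0.96 on +P medium (SE, 3 arrays against 3). With every level under 16 set to 16, these became 2.65 and 2.49, or 6.29-fold and 5.63-fold. The difference on -P medium was 4.78 without replicate 2 of WT -P and 2.97 without replicate 1 of WT -P.

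PBS3, the conjugating enzyme, read 95.05, 306 and 139 in pnp1-1 -P, against 7.01, 53.61 and 15.39 in WT -P. On +P medium it read 17.37, 10.78 and 17.83 in pnp1-1 and 9.18, 7.15 and 4.12 in WT. The mutant on -P medium therefore stood alone well above 16 on all 3 arrays, and the groups on +P medium were separated only around or under that level. The log2 difference of the genotypes was 3.15 ± 0.67 on -P medium, an 8.87-fold higher level in pnp1-1, and 2.73 with levels under 16 set to 16. It was 2.47 without replicate 1 of WT -P and 3.94 without replicate 2 of WT -P. On +P medium it was 1.21 ± 0.67, and 0.09 with the same floor.

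PAD4, the regulator, was dim in every group. It read 15.34, 16.87 and 37.11 in pnp1-1 -P and 18.45, 15.69 and 30.85 in pnp1-1 +P, against 12.54, 12.01 and 7.73 in WT -P and 10.77, 10.59 and 9.46 in WT +P. No WT array reached 16, and 4 of the 6 pnp1-1 arrays did. Its log2 difference was 1.01 ± 0.28 on -P medium and 1.02 ± 0.28 on +P medium, near a 2.02-fold higher level in pnp1-1 on both. With the floor of 16 the differences were 0.43 and 0.38.

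PR1, the most used marker of salicylic acid signalling, had the highest readings in the mutant without phosphate. It read 16663, 15701 and 18438 in pnp1-1 -P and 847, 3103 and 2787 in pnp1-1 +P. In WT it read 1157, 3107 and 1513 on -P medium and 366, 158 and 106 on +P medium. The 3 arrays of pnp1-1 -P were close together and far above all others, those of pnp1-1 +P and WT -P overlapped, and WT +P was lowest. PR1 was 9.61-fold higher in pnp1-1 than in WT on -P medium (log2 difference 3.26 ± 1.12) and 10.6-fold higher on +P medium (3.41 ± 1.12). Leaving out any 1 array of the groups compared kept these log2 differences between 2.96 and 3.67 on -P medium and between 3.01 and 4.01 on +P medium. By size of rise it ranked 26 of 22746 on -P medium and 57 on +P medium.

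PR2, the glucanase, showed the same order of groups with a smaller range. Its readings were 2286, 1179 and 1978 in pnp1-1 -P, against 547, 1030.1 and 311 in WT -P. On +P medium they were 872, 774 and 696 in pnp1-1 and 231, 219 and 113 in WT. The group pnp1-1 +P overlapped WT -P, and the neighbours at the top and the bottom of the order did not overlap. PR2 was 3.12-fold higher in pnp1-1 on -P medium (log2 difference 1.64 ± 1.29) and 4.35-fold higher on +P medium (2.12 ± 1.29).

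PR5, the thaumatin-like protein, was well above 16 in every sample and differed least among the outputs. It read 1187, 1006 and 1559 in pnp1-1 -P, against 951, 504 and 707 in WT -P. On +P medium it read 569, 809 and 485 in pnp1-1 and 301, 257 and 294 in WT. Here WT -P came second by its mean and overlapped pnp1-1 +P. The log2 difference of the genotypes was 0.82 ± 0.44 on -P medium and 1.10 ± 0.44 on +P medium.

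LLP1, the lectin-like protein, read 3715, 1819 and 4435 in pnp1-1 -P, against 1393, 469 and 234 in WT -P. On +P medium it read 1029, 1521 and 1625 in pnp1-1 and 305, 127 and 199 in WT. The WT -P arrays were the most spread and overlapped those of pnp1-1 +P and of WT +P, and pnp1-1 -P lay above all others. LLP1 was 5.81-fold higher in pnp1-1 on -P medium (log2 difference 2.54 ± 0.86) and 6.92-fold higher on +P medium (2.79 ± 0.86). On -P medium the log2 difference was 1.94 without replicate 3 of WT -P and 3.23 without replicate 1 of WT -P.

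**Figure D2:**
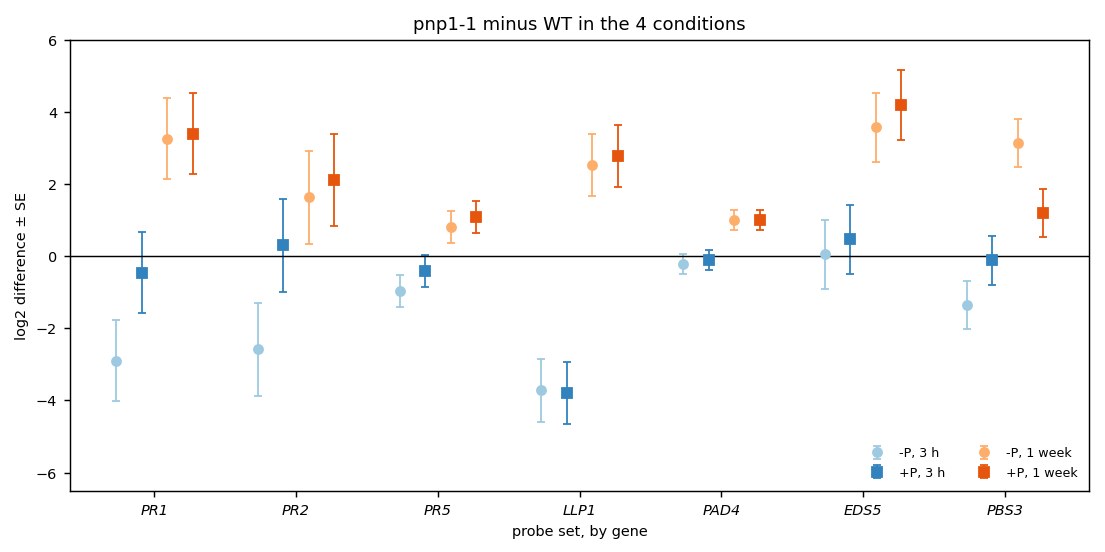
Log2 difference of pnp1-1 minus WT (vertical axis) for the 7 genes (horizontal axis) in the 4 conditions, with bars of 1 SE from limma's fit of all 24 arrays. Both 1 week points lie above 0 for all 7 genes, and LLP1 lies near -3.72 (-P) and -3.80 (+P) at 3 h.

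In limma's fit of all 24 arrays, with Benjamini-Hochberg adjustment over 22746 probe sets and a call at an adjusted p under 0.05, the members called were few, and since the list was chosen on these contrasts nothing is read from their number. On -P medium at 1 week PBS3 was called, beside 1.64% of all probe sets. On +P medium at 1 week PAD4 and EDS5 were called, beside 7.35% of all probe sets. The call of PBS3 was lost without replicate 1 or 3 of WT -P or replicate 2 of pnp1-1 -P, that of EDS5 without replicate 1 or 2 of pnp1-1 +P, and that of PAD4 without any 1 array of WT +P or without replicate 1 or 3 of pnp1-1 +P. Leaving out 1 array moved the share of all probe sets called to between 0.796% (without replicate 3 of WT -P) and 2.02% (without replicate 2 of WT -P) on -P medium. On +P medium it moved to between 2.73% (without replicate 2 of pnp1-1 +P) and 9.29% (without replicate 3 of pnp1-1 +P). The spread in this fit is shared by both times, and the standard error of PR1 was 1.12 there and 0.59 with the 1 week arrays fitted alone. Fitted alone, the 1 week arrays gave PR1 on -P medium (1.3% of all probe sets called) and PR1, PR2, PR5, LLP1 and EDS5 on +P medium (6.79%). On -P medium, where same-numbered arrays deviate together, the fit with replicate as a block called LLP1, EDS5 and PBS3, and 633 probe sets in place of 374.

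Phosphate withdrawal for 1 week went with higher readings in both genotypes. The median of the 7 log2 differences, -P minus +P, was 1.17 in pnp1-1 and 1.47 in WT, beside -0.02 and 0.02 over all probe sets. In pnp1-1 the largest was PBS3, which was 10.7-fold higher on -P medium (log2 difference 3.41 ± 0.67, or 3.22 with the floor of 16). In WT the largest was PR1, 9.62-fold higher on -P medium (3.27 ± 1.12), and in pnp1-1 PR1 was 8.70-fold higher (3.12 ± 1.12, or 2.52 without replicate 1 of pnp1-1 +P). PR2 was 2.25-fold higher on -P medium in pnp1-1 and 3.13-fold in WT, and PR5 was 2.03-fold and 2.46-fold higher. PAD4 differed by 0.03 in pnp1-1 and 0.04 in WT on the log2 scale, with an SE of 0.28 in each.

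All 3 arrays on -P medium lay above all 3 on +P medium for PR1, PR2, PR5, LLP1 and PBS3 in pnp1-1, as for 4.93% of all probe sets. In WT this held for PR1, PR2, PR5 and EDS5, beside 7.09% of all probe sets. For EDS5 in WT the separation was between 5.97 and 5.52, so it lies within the dim range apart from the single reading of 72.94, and without that array the log2 difference was 0.32 in place of 1.51. The 24-array fit called PBS3 in pnp1-1, where 0.941% of all probe sets were called, and 0 of the 7 in WT, where 3.43% were called. Here too the list was chosen with these arrays in view, and nothing is read from the members called. The call of PBS3 was lost without replicate 2 of pnp1-1 -P or of pnp1-1 +P. The share of all probe sets called in WT was 1.21% without replicate 2 of WT +P and 5.6% without replicate 1 of WT +P. With the 1 week arrays alone, PR1 was called in pnp1-1 (0.936% of all probe sets), and PR1 and PR5 in WT (3.7%). Both comparisons at 1 week are within 1 genotype, and each shares its arrays with the genotype comparisons above.

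**Figure D3:**
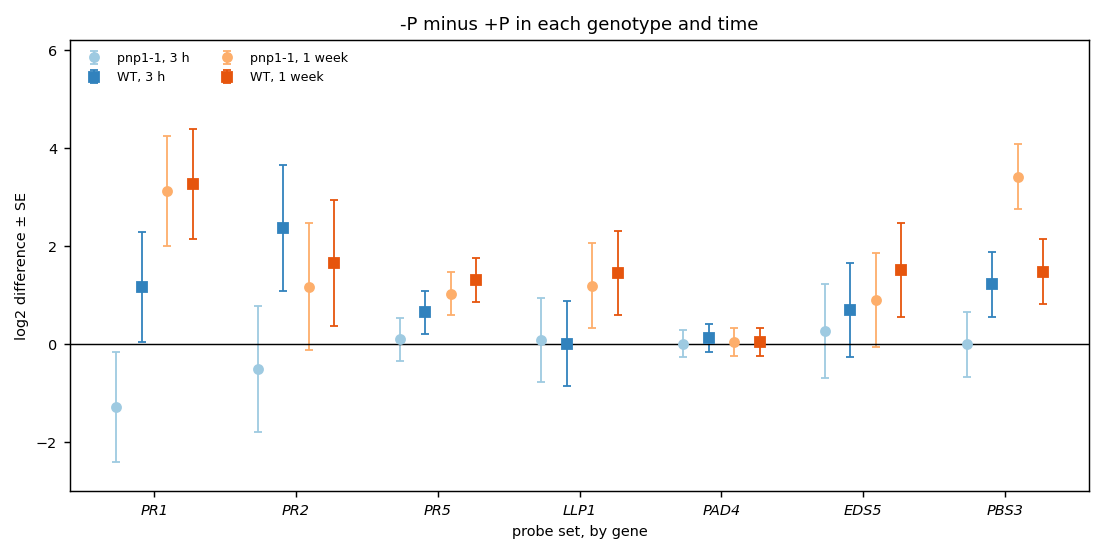
Log2 difference of -P minus +P (vertical axis) for the 7 genes (horizontal axis) in pnp1-1 and WT at each time, with bars of 1 SE from limma's fit of all 24 arrays. At 1 week PR1 lies near 3.12 in pnp1-1 and 3.27 in WT, and PAD4 lies near 0 in all 4.

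Set against each other, the group with both changes and the group with neither were far apart at 1 week. PR1 was 92.4-fold higher in pnp1-1 -P than in WT +P, LLP1 15.7-fold, PR2 9.77-fold and PR5 4.34-fold. With levels under 16 set to 16, EDS5 was 10.4-fold, PBS3 9.96-fold and PAD4 1.35-fold higher. The groups that each carry 1 of the changes differed less. For pnp1-1 +P minus WT -P the median log2 difference was 0.47, and 6 of the 7 genes had overlapping arrays, with PAD4 the exception. The share of all probe sets that overlap between these groups was not counted, so nothing is read from the number of genes that do. PR1 differed by 0.14 between them and PR5 by -0.20, while EDS5 differed by 2.69 (1.76 with the floor), LLP1 by 1.35 and PAD4 by 0.98 (0.38 with the floor).

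On the log2 scale the genotype difference at 1 week was of similar size on the 2 media for most of the genes. The difference on -P medium minus that on +P medium was -0.14 ± 1.59 for PR1, -0.48 ± 1.82 for PR2, -0.28 ± 0.63 for PR5, -0.25 ± 1.22 for LLP1 and 0.00 ± 0.40 for PAD4. These errors are wide, and their spread is shared with the 3 h arrays. In this fit they leave room for a dependence on medium of more than 2-fold in PR1, PR2, PR5 and LLP1, as does the error of EDS5. PBS3 gave 1.94 ± 0.94 (2.64 with the floor), the largest of the 7, and EDS5 gave -0.62 ± 1.36 (0.16 with the floor, so its sign turned). Of all probe sets, 0.0791% (18) were called in this contrast of differences by limma with Benjamini-Hochberg adjustment. With the 1 week arrays fitted alone, the SE of a single genotype difference changed. It fell for PR1 (1.12 to 0.59), PR2 (1.29 to 0.44), PR5 (0.44 to 0.26), LLP1 (0.86 to 0.61) and EDS5 (0.96 to 0.93). It grew for PAD4 (0.28 to 0.36) and PBS3 (0.67 to 0.70).

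After 3 h the picture differed from gene to gene, and most of the list was dim. Genotype differences had a median of -1.34 on -P medium and -0.11 on +P medium, beside -0.001 and -0.02 over all probe sets. Without replicate 2 of WT -P, the array that stood apart, the median on -P medium was -0.50. LLP1 was the gene with the clearest separation. It read 14.5, 25.9 and 25.4 in pnp1-1 -P, against 75.5, 817.6 and 355.4 in WT -P. On +P medium it read 13.0, 27.0 and 23.1 in pnp1-1 and 64.1, 493.5 and 688.1 in WT. All 6 mutant arrays lay below all 6 WT arrays, and replicate 1 was the lowest in each of the 4 groups. The share of all probe sets separated over both media was not counted, so nothing is read from that separation.

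The log2 difference of LLP1 was -3.72 ± 0.86 on -P medium and -3.80 ± 0.86 on +P medium, so its level in pnp1-1 was 13.2-fold and 13.9-fold lower than in WT. Leaving out 1 array moved the difference on -P medium to between -4.67 (without replicate 1 of WT -P) and -2.95 (without replicate 2 of WT -P). On +P medium it moved to between -4.86 (without replicate 1 of WT +P) and -3.15 (without replicate 3 of WT +P). LLP1 was chosen with differences between these arrays already in view, so its calls and its contrast between times are descriptions. LLP1 was the single member called at 3 h, on -P medium beside 4.26% of all probe sets and on +P medium beside 7.41%. It was not called with the 3 h arrays fitted alone (3.06% of all probe sets called on -P medium and 5.12% on +P medium), nor on -P medium without replicate 2 or 3 of WT -P or without replicate 1 or 2 of pnp1-1 -P, nor on +P medium without replicate 2 or 3 of WT +P. Without replicate 3 of WT -P, PR1 was called on -P medium. Leaving out 1 array moved the share of all probe sets called to between 1.87% (without replicate 2 of pnp1-1 -P) and 3.54% on -P medium, and to between 3.05% (without replicate 3 of WT +P) and 9.55% on +P medium. By size of fall LLP1 ranked 8 on -P medium and 10 on +P medium of 22746. The sign of LLP1 at 1 week was the opposite: the difference at 1 week minus that at 3 h was 6.26 ± 1.22 on -P medium and 6.59 ± 1.22 on +P medium, where 0.308% (70) and 0.136% (31) of all probe sets were called.

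PR5 was above 16 on every array at 3 h. It read 236.9, 247.7 and 327.0 in pnp1-1 -P, against 329.5, 563.9 and 767.8 in WT -P, so the highest mutant reading lay just under the lowest WT reading. On +P medium it read 120.9, 473.7 and 276.6 in pnp1-1 and 475.2, 176.3 and 450.1 in WT, and the groups overlapped. The log2 difference was -0.96 ± 0.44 on -P medium and -0.42 ± 0.44 on +P medium. PR5 and LLP1 on -P medium were the members with all 3 mutant arrays below all 3 WT arrays, beside 9.26% of all probe sets. On +P medium they were LLP1 and PBS3, beside 10.7%.

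PR1 and PR2 at 3 h turned on single arrays. PR1 read 10.6, 8.0 and 7.2 in pnp1-1 -P, against 39.2, 679.4 and 9.5 in WT -P. On +P medium it read 12, 80.2 and 9.4 in pnp1-1 and 68.7, 20.4 and 16.5 in WT. PR2 lay under 16 on 9 of the 12 arrays. Its readings were 7.1, 8.1 and 10.4 in pnp1-1 -P, against 13.0, 1359.4 and 7.3 in WT -P. On +P medium they were 5.5, 44.8 and 7.1 in pnp1-1 and 16.8, 7.6 and 7.3 in WT. Replicate 2 of WT -P and replicate 2 of pnp1-1 +P gave the highest reading of their group for both genes. The log2 difference on -P medium was -2.90 ± 1.12 for PR1 and -2.58 ± 1.29 for PR2, and -1.19 and -0.21 without replicate 2 of WT -P. Without replicate 3 of WT -P these were -4.27 and -3.98. On +P medium it was -0.45 ± 1.12 for PR1 and 0.30 ± 1.29 for PR2, and -1.42 and -0.64 without replicate 2 of pnp1-1 +P. Without replicate 1 of WT +P the difference of PR1 was 0.18, and without replicate 1 of pnp1-1 +P that of PR2 was 0.87.

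The upstream genes were at the lower limit at 3 h. PAD4 lay between 7.9 and 12.2 on all 12 arrays. PBS3 read from 4.6 to 5.0 on the 6 mutant arrays and from 5.0 to 5.6 in WT +P. In WT -P it read 4.8, 38.3 and 9.5, and the reading of 38.3 is again replicate 2. EDS5 read 18.1, 15.8 and 15.4 in pnp1-1 -P, against 29.2, 17.1 and 7.9 in WT -P. On +P medium it read 5.4, 46.5 and 10.2 in pnp1-1 and 34.2, 5.8 and 4.8 in WT. No order of groups at 3 h can be read from these genes, whose neighbouring groups overlapped throughout for PAD4 and EDS5.

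Moving plants to medium without phosphate for 3 h gave 0 members called in either genotype, beside 0.00879% of all probe sets (2) in pnp1-1 and 0% in WT, where 817 probe sets had an unadjusted p under 0.05. With replicate as a block, 0 members were called in either genotype, beside 1 of all probe sets in pnp1-1 and 4 in WT. The median of the 7 log2 differences was 0.00 in pnp1-1 and 0.68 in WT, and without replicate 2 of WT -P the WT median was 0.12. PR1 in WT had a log2 difference of 1.15 ± 1.12 with that array and -0.56 without it, and 2.52 without replicate 3 of WT -P. For PR2 in WT the values were 2.37 ± 1.29, 0.00 and 3.77. No member had separated groups in either comparison. Among all probe sets, 1.77% in pnp1-1 and 2.82% in WT had all 3 arrays on -P medium above all 3 on +P medium, and 1.58% and 4.05% had them below. For the genotype difference on -P medium minus that on +P medium at 3 h, 0 of all probe sets were called, with 684 at an unadjusted p under 0.05.

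**Figure D4:**
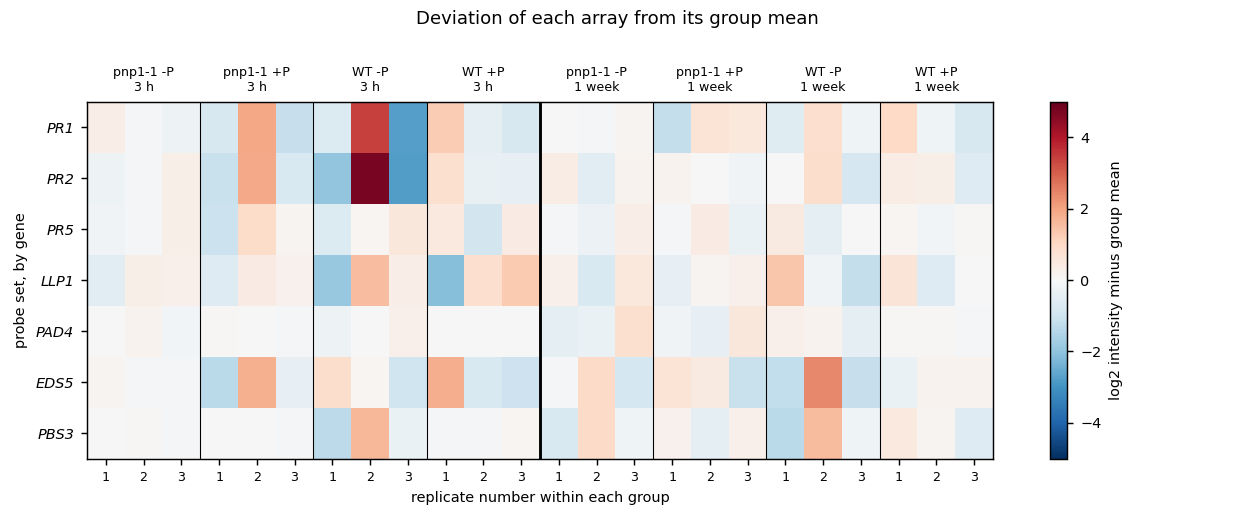
Deviation of each array (columns, grouped by condition) from its group mean for the 7 genes (rows), as log2 intensity minus the mean of the 3 log2 values. Replicate 2 of WT -P at 3 h is darkest in PR1 and PR2, and replicate 2 of pnp1-1 +P at 3 h is red in PR1, PR2 and EDS5.

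Correlations between the genes were higher over the 1 week arrays than over the 3 h arrays. Across the 12 arrays at 1 week, Pearson r of log2 intensity over the 21 pairs of genes ran from 0.50 to 0.93 with a median of 0.78, and across the 12 arrays at 3 h it ran from -0.34 to 0.92 with a median of 0.45. These arrays share the group differences described above, and the genes were chosen with such differences in view. At 3 h PAD4 lay under 16 on 12 of the 12 arrays, PBS3 on 11 and PR2 on 9. The contrast of r between the times is therefore not read as a property of the genes. With each group's mean removed, r over the 24 arrays ran from -0.42 (LLP1 with EDS5) to 0.89 (PR1 with PR2), with a median of 0.16. The pair PR1 and PR2 thus kept its r within groups, where 2 arrays at 3 h carry the largest deviations of both, and LLP1 with EDS5 had the lowest of the 21. The r values are descriptions of arrays that share hybridization and group, and no p is given.

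Among 14678 other probe sets that reached 16 on at least 3 arrays, likeness to the mean of the 7 was ranked by Pearson r over the 24 arrays after centring within each time. The 5 nearest had r of 0.90, 0.87, 0.84, 0.84 and 0.84. The first 3 have no gene name in the table used here, and the others read the loci AT1G66880 and AT1G35710. At 1 week the nearest averaged 1483 in pnp1-1 -P, 285 in pnp1-1 +P, 121 in WT -P and 27.6 in WT +P. AT1G66880 averaged 315 in pnp1-1 -P, 158 in pnp1-1 +P, 133 in WT -P and 64.5 in WT +P. Both had the order of groups seen for PR1. They were picked for likeness to the 7 over these same arrays, so no support is read from that order.

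Other genes of the pathway could be followed only in part. Of 57 further genes listed for synthesis, regulation, perception, modification and systemic acquired resistance, 6 had a named probe set, and the rest, among them ICS1, EDS1, NPR1, SARD1, CBP60g, WRKY70, ALD1 and FMO1, were not analysed here. Tested in the same fit with all probe sets, 2 of the 6 rose in pnp1-1 on +P medium at 1 week (3.33% of all probe sets rose), 1 rose on +P medium at 3 h (4.09%), and 0 of 6 were called on -P medium at either time. For -P against +P, 1 of 6 rose in WT at 1 week (1.86%), and 0 of 6 were called in pnp1-1 at 1 week or in either genotype at 3 h. None of the 6 fell in any of the 8 comparisons, and 0 of 6 were called in any of the 4 contrasts of differences. The list of 57, like the other gene lists below, was chosen with earlier results of these data known. Counts and adjusted p values for these lists are therefore descriptions, and no independent support is read from them. The median log2 difference of the 6 was 0.43 on -P medium and 0.90 on +P medium for genotype at 1 week, and 0.37 in pnp1-1 and 0.89 in WT for phosphate at 1 week.

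GRX480, a glutaredoxin induced by salicylic acid that binds TGA transcription factors, was the output among them. It belongs to a list chosen with earlier results of these data known, so its adjusted p values are given as descriptions. It read 658, 532 and 401 in pnp1-1 -P and 168, 198 and 60.63 in pnp1-1 +P at 1 week. In WT it read 109.8, 187 and 102 on -P medium and 44.32, 19.38 and 26.46 on +P medium. The mutant groups lay above the WT groups on the same medium, as for 6.96% (-P) and 12.1% (+P) of all probe sets. The group pnp1-1 +P overlapped WT -P, as for PR1. GRX480 is described further here. GRX480 rose in pnp1-1 on +P medium by 2.16 ± 0.56 on the log2 scale (limma adjusted p = 0.0250, 0.00764 to 0.139 over 13 other settings) and in WT on -P medium by 2.18 ± 0.56 (adjusted p = 0.0394, 0.0248 to 0.197). The first call was lost without replicate 2 or 3 of WT +P (adjusted p = 0.123 and 0.0766), without replicate 1 or 2 of pnp1-1 +P (0.108 and 0.139), and with the close pair of WT +P arrays averaged (0.0984). The second was lost without replicate 2 or 3 of WT +P (0.197 and 0.129) and without replicate 1, 2 or 3 of WT -P (0.0752, 0.124 and 0.0690). It was also lost with that pair averaged (adjusted p = 0.164) and with levels under 16 set to 16 (0.0536). Its differences on -P medium between genotypes (2.02 ± 0.56, limma adjusted p = 0.0852) and in pnp1-1 between media (2.04 ± 0.56, adjusted p = 0.135) missed the threshold, with all 3 arrays above all 3 in each. Between media in pnp1-1, 4.93% of all probe sets were separated in this way.

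SAG101 and UGT76B1 were named after their values were seen, so their adjusted p values are given as descriptions too. SAG101, a lipase-like partner of EDS1 as PAD4 is, read 193, 295 and 237 in pnp1-1 -P and 399.8, 358 and 214 in pnp1-1 +P at 1 week. In WT it read 104.5, 172 and 119.8 on -P medium and 100.5, 84.71 and 127 on +P medium. Its mutant arrays lay above the WT arrays in all 4 conditions, and -P and +P overlapped in both genotypes. At 1 week 6.96% (-P) and 12.1% (+P) of all probe sets had every mutant array above WT. For 3 h that share is not given here, so nothing is read from the separation there. SAG101 rose by 1.61 ± 0.31 on +P medium at 1 week (limma adjusted p = 0.00467, 0.00207 to 0.0335 over 13 other settings). On -P medium at 3 h the log2 difference was 1.03 ± 0.31 (limma adjusted p = 0.0722), and SAG101 was called there with replicate as a block (0.0325). On +P medium at 3 h it was 1.04 ± 0.31 (limma adjusted p = 0.0501), and on -P medium at 1 week 0.88 ± 0.31 (adjusted p = 0.216).

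UGT76B1, a glucosyltransferase that acts on salicylic acid among other defence metabolites, read 32.8, 49.9 and 116.4 in pnp1-1 +P at 3 h, against 4.8, 8.3 and 6.7 in WT +P. It rose there by 3.16 ± 0.87 (limma adjusted p = 0.0335, 0.0192 to 0.178 over 13 other settings). The WT readings lie in the dim range, and with levels under 16 set to 16 the call was lost (adjusted p = 0.178). It was also lost without replicate 1, 2 or 3 of WT +P (0.0729, 0.0629 and 0.101), without replicate 2 or 3 of pnp1-1 +P (0.0734 and 0.123), and with the 3 h arrays fitted alone (0.0513). The other 3 were At5g52810, a reductase of pipecolic acid synthesis, with overlapping groups in all 4 genotype comparisons, and UGT74F1 and BSMT1, which glucosylate and methylate salicylic acid. UGT74F1 lay between 5.76 and 7.02 on all 24 arrays. BSMT1 stayed under 16 on 23 of 24 arrays, the exception being 75.18 in replicate 3 of WT -P at 1 week.

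**Figure D5:**
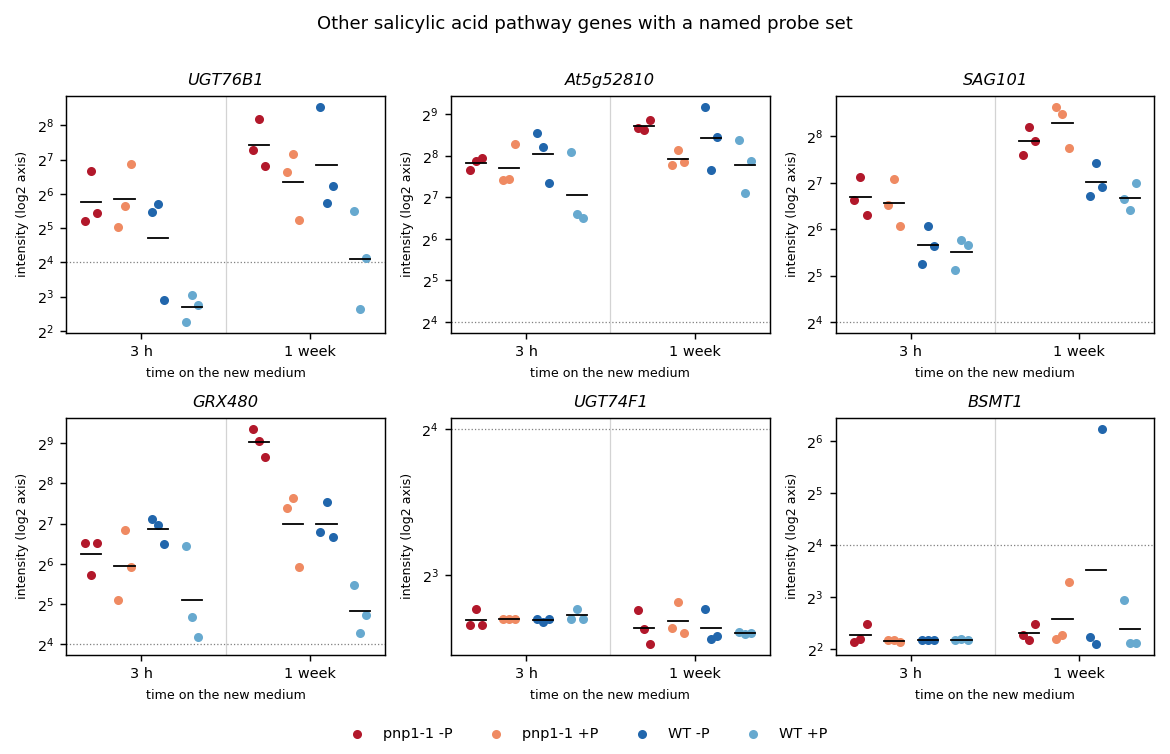
Intensity (log2 axis) of the 6 other pathway genes with a named probe set on the 24 arrays, with pnp1-1 -P, pnp1-1 +P, WT -P and WT +P from left to right within each time. Points are arrays, black bars are means of the 3 log2 values, and the dotted line marks an intensity of 16. GRX480 at 1 week runs from 401 to 658 in pnp1-1 -P and from 19.38 to 44.32 in WT +P.

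PDF1.2, a defensin of the jasmonate and ethylene branch, was the 1 gene of 6 on that list with a named probe set. At 1 week it read 976, 1072 and 2290.0 in pnp1-1 -P and 328, 1513 and 733 in pnp1-1 +P. In WT it read 9303, 1215 and 381 on -P medium and 168, 225 and 309 on +P medium. It was called in 0 of the 8 comparisons. Its highest reading was a single array of WT -P, and the genotypes overlapped on -P medium (log2 difference -0.28 ± 0.97). On +P medium all 3 pnp1-1 arrays lay above all 3 WT arrays (1.65 ± 0.97), as for 12.1% of all probe sets.

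Markers of tissue were matched for 1 of 4 leaf genes, 1 of 4 root genes and 0 of 3 senescence genes. RCA, the Rubisco activase of leaves, lay between 17512 and 36283 at 1 week and differed between genotypes by -0.10 to -0.23 on the log2 scale in the 4 conditions, without a call. PYK10, a beta-glucosidase of ER bodies that is abundant in roots, lay between 8160.0 and 8984 in pnp1-1 -P and between 9550 and 11246 in pnp1-1 +P at 1 week. In WT it lay between 987 and 3027 on -P medium and between 857 and 1138 on +P medium. It rose in pnp1-1 in all 4 conditions, by 2.24 on -P medium and 3.46 on +P medium at 1 week and by 2.39 and 1.80 at 3 h (SE 0.35, limma adjusted p at most 0.00442). Its part in the genotype differences was not tested.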

How the data were processed

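Total RNA was biotin-labelled in a single amplification round, per the labels' protocols. GCRMA, affy and limma are named without versions or order in the submitters' processing notes. The deposited values are intensities on a linear scale, made by the authors. All 24 value columns were mapped. Values were taken to log2 here, 64 control probe sets were left out of 22810, and 1 mean per group was fitted with limma 3.58.1 (lmFit, eBayes) in R 4.3.3, with 16 residual degrees of freedom and Benjamini-Hochberg adjustment. The fit was tested on simulated data. The members and the gene lists were chosen with earlier results of these data known.

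The probe set table, which is GEO's platform annotation, gives 1 gene for 13513 probe sets, several for 503 and none for 8730, so most listed genes and PNP1 itself were not analysed here. Named were the 7 members, the 5 probe sets nearest by r and the 6 other pathway genes with a probe set. The matched jasmonate, leaf and root genes were named too. Of the 6 pathway genes, only GRX480 met the planned rule. That rule was a call in at least 2 genotype comparisons or in either 1 week phosphate comparison. Same-numbered arrays deviated together (each r over 0.1) for genotype on -P medium at both times and for phosphate at 3 h in both genotypes, so the numbers may pair arrays there. The main fit and its standard errors did not use this pairing. The block gave each replicate number 1 effect per time over all groups, also for genotype on +P medium at 1 week, where r fell to -0.52. The labels give no shared day. Alternatives were a floor of 16, quantile normalization, median centring, the block, each time fitted alone, a filter on dim probe sets, an averaged close pair and 1 array left out.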

Additional observations from a re-analysis of the deposited data

Results flagged for a closer look

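For 3 genes, every mutant array lay on one side of WT at 1 week and on the other side at 3 h on the same medium. The share of all probe sets that did so was not counted, so nothing is read from this number. Taken singly, 9.26% (-P) and 10.7% (+P) of all probe sets had every mutant array below WT at 3 h. At 1 week 6.96% (-P) and 12.1% (+P) had every mutant array above WT. The change of sign between times was not tested, because the genes were chosen from these contrasts. LLP1 had a log2 difference (pnp1-1 minus WT) of 2.54 on -P medium at 1 week and -3.72 at 3 h, and of 2.79 on +P medium at 1 week and -3.80 at 3 h. For PR5 on -P medium the difference was 0.82 at 1 week and -0.96 at 3 h. For PBS3 on +P medium it was 1.21 at 1 week and -0.11 at 3 h, and all 6 readings at 3 h were under 16. Each time has its own arrays, so time and batch cannot be told apart.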

How the results depend on the processing

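With no array left out, the 40 alternative values of the median difference moved by less than the spread between replicates, and no called difference changed sign. Some of these values could not move. The block leaves differences of group means unchanged, because every group holds each replicate number. Averaging the close pair cannot alter comparisons without WT +P at 1 week. Medians near 0 had no stable direction: for -P minus +P in pnp1-1 at 3 h the median of 0.00 became -0.03 with median centring, and with the floor of 16 it and the median for genotype on +P at 3 h were 0. Over fits without 1 array the medians for pnp1-1 minus WT ran from -2.00 to -0.50 (-P, 3 h), -0.64 to -0.05 (+P, 3 h), 1.94 to 2.68 (-P, 1 week) and 1.79 to 2.31 (+P, 1 week). For -P minus +P they ran from -0.41 to 0.29 (pnp1-1, 3 h), 0.12 to 1.19 (WT, 3 h), 1.05 to 1.45 (pnp1-1, 1 week) and 1.21 to 2.03 (WT, 1 week). Member counts without 1 array ran from 0 to 1 for genotype at 3 h on each medium, 0 to 2 (-P, 1 week) and 0 to 1 (+P, 1 week, where 2 were called with all arrays), and from 0 to 1 for phosphate in pnp1-1 at 1 week. Pathway gene counts ran from 0 to 1 (genotype, +P, 3 h), 1 to 2 (genotype, +P, 1 week) and 0 to 2 (phosphate, WT, 1 week), and interaction counts from 0 to 2 (medium, 3 h), 9 to 61 (medium, 1 week), 41 to 115 (time, -P) and 14 to 109 (time, +P).

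With the replicate block, members called were 3 (-P, beside 2.78% of all probe sets) and 4 (+P, beside 11.1%) for genotype at 1 week, pathway genes were 1 (-P) and 2 (+P) for genotype at 3 h, where SAG101 on +P had an adjusted p of 0.0205, and the interactions gave 3 (medium, 3 h) and 126 (time, +P). It moved no other of these counts by over 1.5 times. With each time fitted alone, members called were 0 for genotype on each medium at 3 h, 5 for genotype on +P and 2 for phosphate in WT at 1 week, pathway genes 0 (genotype, +P, 3 h), and the interaction with medium at 1 week gave 3. With the floor of 16, members were 2 (-P, beside 1.33% of all probe sets) and 1 (+P, beside 6.01%) for genotype at 1 week, pathway genes 0 (genotype, +P, 3 h) and 0 (phosphate, WT, 1 week), and interactions 34 (medium, 1 week) and 54 (time, +P). With WT +P replicates 2 and 3 at 1 week averaged, genotype on +P gave 1 member and 1 pathway gene (beside 3.63% of all probe sets), phosphate in WT 0 pathway genes, and time on +P 16. With dim probe sets left out, members were 2 (-P) and 4 (+P) for genotype at 1 week and pathway genes 2 (genotype, +P, 3 h). The shares of the kept probe sets called there were 2.45%, 12.3% and 12.6%. Quantile normalization gave 2 for medium at 3 h. Over all probe sets, the block gave 1585 calls in place of 968 (-P, 3 h), 2720 in place of 1686 (+P, 3 h), 633 in place of 374 (-P, 1 week) and 2529 in place of 1671 (+P, 1 week) for genotype, and 1319 in place of 781 for phosphate in WT at 1 week. Without 1 array they ran from 425 to 806 (-P, 3 h), 694 to 2172 (+P, 3 h), 181 to 459 (-P, 1 week) and 621 to 2113 (+P, 1 week) for genotype, and from 163 to 253 (pnp1-1) and 276 to 1273 (WT) for phosphate at 1 week. Averaging the close pair gave 826 (genotype, +P, 1 week) and 292 (phosphate, WT, 1 week). The cause of these moves was not tested. Median centring moved the median of all probe sets to -0.11 and 0.12 for genotype on +P at 3 h and 1 week. Member counts, and interaction counts under alternatives, were added after seeing the data. Readings under 16 limit PAD4, PBS3 and EDS5.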
